A study of Homo sapiens with 9 samples.

Results

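The genes described here are the enzymes that make and break down cyclic AMP: the adenylyl cyclases ADCY1, ADCY3, ADCY6, ADCY7 and ADCY9 and the cAMP phosphodiesterases PDE4A, PDE4B, PDE4C and PDE4D. Every probe set annotated to 1 of these 9 genes and to no other gene was taken, which gave 27 of the 54675 probe sets on the array, for 8 genes out of 19775 measured in this way. The 4 probe sets that name PDE4C also name CIST1, so no value is given to PDE4C. Of the 27 probe sets, 9 lay at or above the median signal of all probe sets (17.8 on the linear scale, log2 4.15), and these came from ADCY3, ADCY6, ADCY7, ADCY9 and PDE4A. The genes were chosen from their own measured log2 signal over DMSO on these arrays. Their differences between groups are thus given as a description, and limma calls on them, where printed, are no support.

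RNA came from PANC-1, an established human line from a pancreatic carcinoma of ductal type, grown in 6-well plates. The 3 groups of 3 arrays each were cells given the small molecule BRD7552 (5 uM) for 72 h, cells given it for 6 h, and cells given only the solvent DMSO, with no time on the DMSO labels. The dose was stated to be the smallest at which PDX1, a homeobox factor of pancreas and beta cells, was induced maximally. Nothing in the labels ties the replicates to independent cultures, so each p-value covers no more than the spread among these arrays, which may be technical.

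Cyclic AMP is a second messenger made from ATP by adenylyl cyclases, most of which sit in the plasma membrane and are switched on by the stimulatory G protein alpha subunit below hormone receptors. It activates protein kinase A, the EPAC exchange factors and cyclic nucleotide-gated channels, and protein kinase A phosphorylates the transcription factor CREB, which binds cAMP response elements in promoters. Phosphodiesterases end the signal by hydrolysing cAMP, and the PDE4 family is specific for cAMP and is the target of rolipram. In pancreatic beta cells cAMP raises glucose-stimulated insulin release.

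The promoter windows of the members whose signal is described most closely are shown so that any cAMP response element near their start sites can be seen. They run from 250 bases before to 50 bases after a RefSeq start site in GRCh38.p14, 5′ to 3′ on the gene's strand, with matches to the core TGACG, or CGTCA on the other strand, in capitals. PDE4A has 5 windows, of which window 1, the 1 with matches, is shown; it lies at chr19:10416523-10416822 on the plus strand, and ADCY3 has windows at chr2:24920188-24920487 and chr2:24919536-24919835 on the minus strand. The ADCY7 window lies at chr16:50266301-50266600 on the plus strand.
PDE4A window 1: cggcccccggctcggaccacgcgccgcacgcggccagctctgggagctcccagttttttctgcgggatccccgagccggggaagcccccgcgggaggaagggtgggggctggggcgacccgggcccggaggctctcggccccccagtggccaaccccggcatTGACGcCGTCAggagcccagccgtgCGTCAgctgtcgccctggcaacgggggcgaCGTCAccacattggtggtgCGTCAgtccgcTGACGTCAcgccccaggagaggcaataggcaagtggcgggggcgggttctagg
ADCY3 window 1: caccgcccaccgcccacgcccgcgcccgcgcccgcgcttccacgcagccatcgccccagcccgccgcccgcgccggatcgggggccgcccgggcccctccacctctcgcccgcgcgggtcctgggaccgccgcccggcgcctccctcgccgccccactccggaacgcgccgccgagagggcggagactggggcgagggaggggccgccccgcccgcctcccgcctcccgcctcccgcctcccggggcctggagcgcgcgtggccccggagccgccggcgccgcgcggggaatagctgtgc
ADCY3 window 2: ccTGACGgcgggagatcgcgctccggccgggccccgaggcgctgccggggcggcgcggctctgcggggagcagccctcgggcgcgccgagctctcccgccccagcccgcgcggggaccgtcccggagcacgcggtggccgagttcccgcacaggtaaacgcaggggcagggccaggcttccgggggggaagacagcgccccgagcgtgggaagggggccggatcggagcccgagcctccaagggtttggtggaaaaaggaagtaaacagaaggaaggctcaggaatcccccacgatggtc
ADCY7 window: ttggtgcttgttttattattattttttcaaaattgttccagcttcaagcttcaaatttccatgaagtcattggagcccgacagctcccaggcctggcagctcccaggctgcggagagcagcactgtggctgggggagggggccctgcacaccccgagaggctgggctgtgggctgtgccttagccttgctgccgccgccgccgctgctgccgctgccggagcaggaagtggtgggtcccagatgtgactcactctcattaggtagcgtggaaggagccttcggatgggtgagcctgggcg
Windows were found for 7 of the 9 genes, 28 in all, and ADCY6 and ADCY9 had none. The full element TGACGTCA, searched on both strands, was in 1 of the 28 windows, PDE4A window 1, where it spans the start site; it was in 1.85% of all 35116 windows of this length. The other 4 PDE4A windows held no match to the element or its core. PDE4A window 1 held 7 matches to the core TGACG, 2 of them inside the full element. The core was in 6 of the 28 windows and in 24.6% of all windows. The 2 ADCY1 windows overlap, and the single match of each is the same site. ADCY3 window 2 held 1 match to the core, while ADCY3 window 1 and the ADCY7 window held no match to these letters. The matches are a description of sequence, and no binding was measured in this study.

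ADCY9, a widely expressed membrane adenylyl cyclase known for its weak response to forskolin, has 3 probe sets on the array, and they did not show one pattern. Probe set 204497_at had signals of 691, 594 and 615 on the 72 h arrays, 319.9, 324 and 324 on the 6 h arrays, and 254, 249.5 and 257 on the DMSO arrays. All 72 h arrays lay above all 6 h arrays, and all 6 h arrays lay above all DMSO arrays. The mean was 634 ± 51.2 at 72 h, 323 ± 2.48 at 6 h and 254 ± 3.83 in DMSO (SD, n = 3 each). Against DMSO the log2 difference was 1.32 at 72 h, which is 2.49-fold, and 0.35 at 6 h, which is 1.27-fold, each with a standard error of 0.07. The comparisons with DMSO share the 3 DMSO arrays. Between the times, 72 h minus 6 h came to 0.97 log2 units (SE 0.07). Among 12678 genes, each taken by its brightest probe set, the log2 difference of ADCY9 ranked 9 from the top at 72 h, 83 at 6 h and 14 for 72 h against 6 h.

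Probe set 204498_s_at of ADCY9 gave signals of 59.3, 63.4 and 61.1 at 72 h, 56.9 on each of the 3 arrays at 6 h, and 55.6, 46.5 and 45.7 in DMSO. The order of the groups was the same as for 204497_at and the arrays did not overlap, but the differences were smaller. Its log2 difference from DMSO was 0.32 at 72 h and 0.21 at 6 h (SE 0.12 each), and 72 h minus 6 h was 0.11. The identical value on all 6 h arrays gives an SD of 0.0 there, and such ties between arrays occur in 59.2% of all probe sets of the deposited table, so the SD of this group understates the error. The third probe set, 215400_x_at, lay below the median of all probe sets. Its signals were 19.7, 12.7 and 15.7 at 72 h, 13.9, 15.7 and 17.1 at 6 h, and 15.7, 15.7 and 16.7 in DMSO. These groups overlapped, and the log2 differences from DMSO were -0.02 at 72 h and -0.05 at 6 h (SE 0.16 each).

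**Figure D1:**
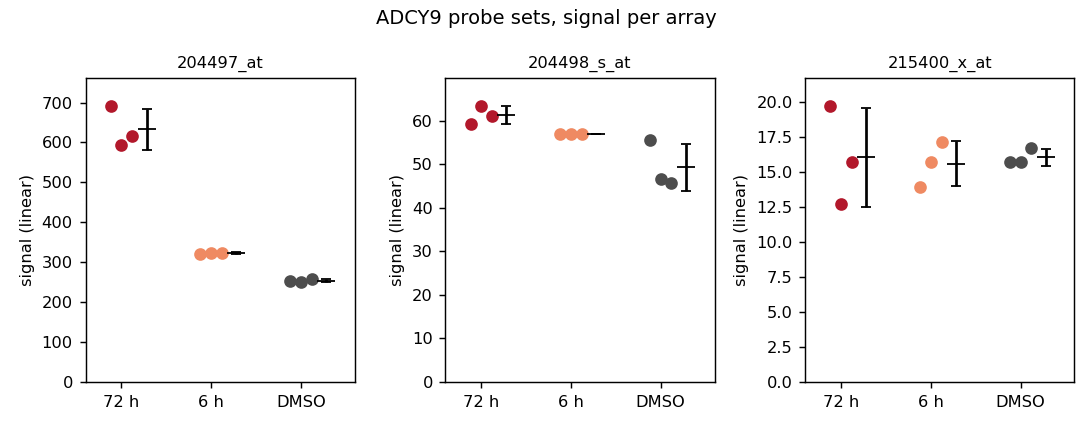
Linear signal of the 3 ADCY9 probe sets, 1 panel each with its own vertical axis, against exposure group (72 h, 6 h, DMSO). Each point is 1 array and the bars are the mean ± SD of 3 arrays; 204497_at lies between 594 and 691 at 72 h, 204498_s_at between 59.3 and 63.4, and the groups of 215400_x_at overlap.

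The brighter 2 probe sets of ADCY9 were then set against each other within each array, as the log2 ratio of 204497_at to 204498_s_at minus the mean of that ratio over the DMSO arrays. This measure removes any factor that scales a whole array. It was 1.17, 0.86 and 0.96 at 72 h, 0.12, 0.14 and 0.14 at 6 h, and -0.18, 0.05 and 0.12 in DMSO. Every 72 h array lay apart from the other 6, whereas the 6 h and DMSO arrays overlapped, if narrowly. These 2 probe sets thus changed by unequal amounts at 72 h. No such ratio is given for 215400_x_at, which is too dim, and which parts of the ADCY9 transcripts each one reads was not analysed here.

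ADCY3, a calcium-modulated membrane cyclase known from olfactory cilia and primary cilia, had lower signals at 72 h on both of its probe sets. Probe set 209321_s_at gave 93.4, 97.1 and 69.5 at 72 h, 177.9, 183 and 194 at 6 h, and 181, 177 and 179 in DMSO. All 72 h arrays lay below the other 6 arrays, and the 6 h arrays overlapped DMSO. The mean was 86.7 ± 15.0 at 72 h, 185 ± 8.47 at 6 h and 179 ± 2.16 in DMSO (SD, n = 3 each). The log2 difference from DMSO was -1.06 at 72 h and 0.05 at 6 h (SE 0.12 each), and 72 h minus 6 h was -1.11. In the order of 12678 genes from the most negative difference it stood at 57 for 72 h against DMSO. Probe set 209320_at gave 73.1, 56.6 and 65.5 at 72 h, 103, 107 and 106 at 6 h, and 100.3, 98.2 and 106 in DMSO. The groups separated in the same way, with log2 differences from DMSO of -0.65 at 72 h and 0.06 at 6 h (SE 0.12 each). Within arrays the ratio of the first to the second probe set, relative to DMSO, was -0.47, -0.04 and -0.73 log2 units at 72 h, so their disagreement varied from array to array.

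ADCY7, a membrane cyclase known best from blood and immune cells, was read by probe sets that disagreed. Probe set 203741_s_at gave 69.3, 60.6 and 62.3 at 72 h, 113, 118 and 144 at 6 h, and 106, 132 and 105 in DMSO. All 72 h arrays lay below the rest, and the 6 h arrays overlapped DMSO. Its mean was 64.1 ± 4.59 at 72 h, 125 ± 16.4 at 6 h and 114 ± 15.3 in DMSO (SD, n = 3 each), and the log2 difference from DMSO was -0.83 at 72 h and 0.13 at 6 h (SE 0.13 each). Probe set 1554827_a_at gave 43.1, 34.8 and 55.4 at 72 h, 43.7, 42.7 and 45.8 at 6 h, and 41.4, 44.4 and 43.7 in DMSO. Its groups overlapped, and its log2 difference at 72 h was 0.02, with a range of -0.16 to 0.18 when single arrays were left out. The log2 ratio of 203741_s_at to this probe set, relative to DMSO, was -0.71, -0.60 and -1.23 on the 72 h arrays.

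ADCY6, a cyclase inhibited by calcium, has 1 probe set, 209195_s_at. It gave 81.5, 60.4 and 86.8 at 72 h, 91.6, 98.0 and 99.4 at 6 h, and 91.1, 88.4 and 91.6 in DMSO. The 72 h arrays lay below DMSO, with 72 h replicate 2 the lowest. The log2 difference from DMSO was -0.26 at 72 h and 0.09 at 6 h (SE 0.13 each). Without 72 h replicate 2 the 72 h difference was -0.10. ADCY1, a neuronal cyclase stimulated by calcium and calmodulin, had 5 probe sets, all below the median of all probe sets, with means over the 9 arrays of 8.98 to 16.6.

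**Figure D2:**
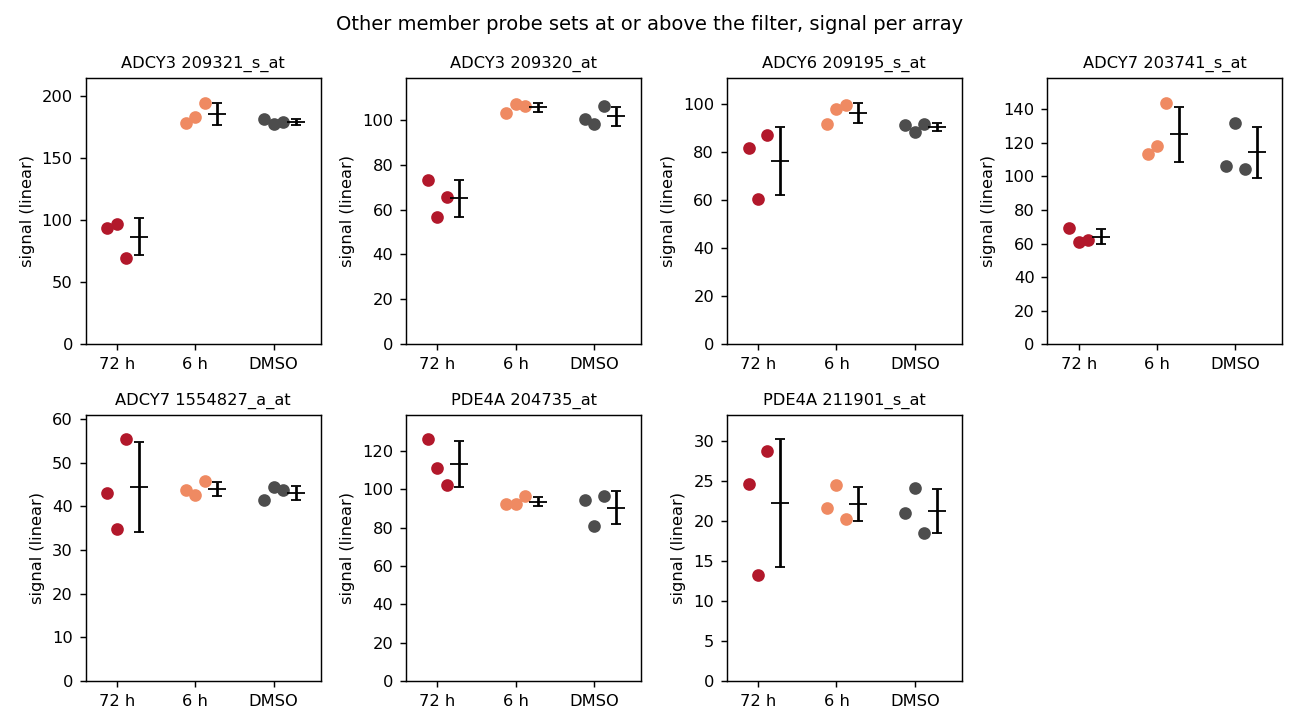
Linear signal per array of the other member probe sets at or above the median of all probe sets, 1 panel each with its own vertical axis, against exposure group (72 h, 6 h, DMSO). Points are arrays and bars the mean ± SD of 3 arrays; both ADCY3 probe sets and ADCY7 203741_s_at have all 72 h points below the others, and PDE4A 204735_at has its 72 h points above them.

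On the degrading side, PDE4A was, of PDE4A, PDE4B and PDE4D, the 1 gene with signal above the median of all probe sets. Probe set 204735_at gave 126, 111 and 102 at 72 h, 92.2, 92.3 and 96.3 at 6 h, and 94.4, 80.6 and 96.3 in DMSO. All 72 h arrays lay above the other 6. The mean was 113 ± 11.9 at 72 h, 93.6 ± 2.34 at 6 h and 90.4 ± 8.57 in DMSO (SD, n = 3 each), with log2 differences from DMSO of 0.32 at 72 h and 0.05 at 6 h (SE 0.12 each). Probe set 211901_s_at of PDE4A gave 24.7, 13.3 and 28.7 at 72 h, 21.7, 24.5 and 20.3 at 6 h, and 21.1, 24.1 and 18.6 in DMSO. It overlapped in every comparison, and its 3 dimmer probe sets had means of 8.88 to 15.8 over the 9 arrays.

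PDE4B and PDE4D, the family members with the best known roles in inflammatory cells and in heart and brain, were dim throughout. The 3 PDE4B probe sets had means over 9 arrays of 6.24 to 11.2, and the 6 PDE4D probe sets had means of 6.40 to 12.8. Over all 18 member probe sets below the median, fitted without the filter on low signal, log2 differences from DMSO ran from -0.26 to 0.26 at 72 h and from -0.22 to 0.23 at 6 h. The lowest at 72 h was PDE4B 203708_at, with 10.9, 10.9 and 9.08 at 72 h, 10.9, 10.9 and 11.3 at 6 h, and 11.4, 12.5 and 12.9 in DMSO. Its exposed arrays lay below DMSO at both times, at signals below those of most probe sets.

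**Figure D3:**
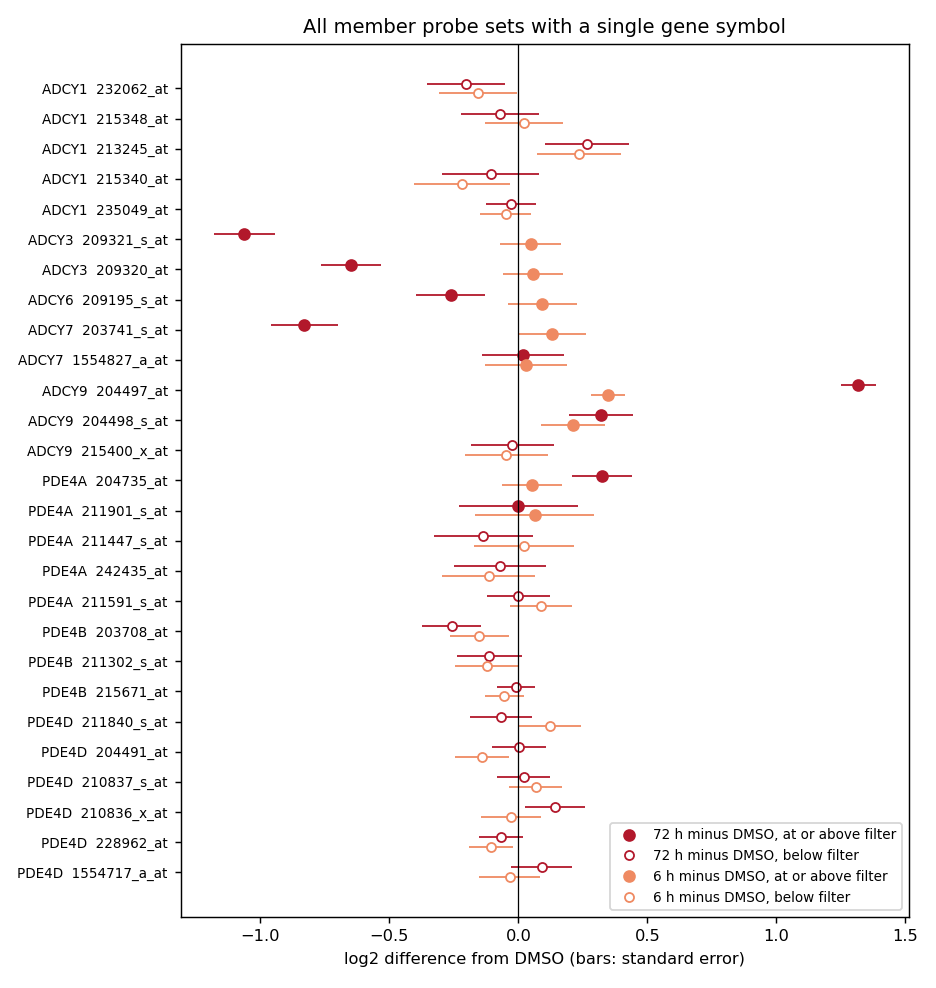
Log2 difference from DMSO (horizontal axis) of each member probe set at 72 h and at 6 h, with bars for the standard error; probe sets run down the page by gene. ADCY9 204497_at stands at 1.32 at 72 h and 0.35 at 6 h, ADCY3 209321_s_at at -1.06 at 72 h, and the probe sets below the median lie between -0.26 and 0.26.

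At a Benjamini-Hochberg adjusted limma p below 0.05 over 27307 probe sets, 4 of the 9 member probe sets at or above the median were called at 72 h against DMSO, where 19.8% of all such probe sets were called. ADCY9 204497_at was called higher, and both ADCY3 probe sets and ADCY7 203741_s_at lower. At 6 h none of the 9 was called, 1 had an unadjusted p below 0.05, and 0.194% of all probe sets were called. In that comparison ADCY9 204497_at was called with 1 probe set per gene, quantile normalization, cyclic loess, array weights or a filter at the 75th percentile of signal, and also without 72 h replicate 1. For 72 h against 6 h the same 4 probe sets were called, beside 17.5% of all. Arrays did not overlap for 7 of the 9 at 72 h against DMSO, for 2 at 6 h and for 7 between the times, beside 32.1%, 10.9% and 29.0% of all probe sets. Since these responses chose the genes, nothing is read from the counts or from any single call, whatever the setting.

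Array-wide properties differed a little between the groups. The median signal ran from 16.2 to 18.8 over the 9 arrays, and 72 h replicates 2 and 3 had upper quartiles of 97.2 and 99.5, against 112 to 119 for the other 7 arrays. The ratio of 3′ to 5′ ACTB probe sets was 2.07 to 2.21 at 72 h, 1.74 to 2.05 at 6 h and 1.91 to 2.01 in DMSO. At 72 h 71.9% of called probe sets were lower; after quantile normalization it was 55.6% and after cyclic loess 54.3%. Under those scalings ADCY9 204497_at, both ADCY3 probe sets and ADCY7 203741_s_at kept their directions at 72 h. ADCY9 204498_s_at and PDE4A 204735_at, not called with values as deposited, were called higher under both. These responses chose the genes, so nothing is read from the calls. All 7 markers of duct epithelium were above the median of all probe sets. Their summed signal, mostly from KRT18, KRT8 and KRT19, was 28498 at 72 h, 34716 at 6 h and 34842 in DMSO. Each of the 7 averaged lower at 72 h than in DMSO, by unequal amounts. KRT7, the most changed in proportion, averaged 61.1 at 72 h, 118 at 6 h and 123 in DMSO. Among the least changed, SOX9 averaged 1718 at 72 h and 1793 in DMSO, and CDH1 50.7 and 52.4. All 3 islet endocrine and all 3 leukocyte markers measured were below it, while 2 of 4 fibroblast markers, 1 of 3 acinar, 1 of 3 endothelial and 1 of 2 red cell and hepatocyte markers were above. COL1A1, a fibroblast collagen, averaged 526 at 72 h, 576 at 6 h and 605 in DMSO. The fibroblast markers did not move together. DCN averaged 31.35 at 72 h and 29.06 in DMSO, and PDGFRB 19.09 and 16.82, while LUM averaged 6.87 and 7.77. The part of these shifts in the members' values was not tested. In bulk RNA, fewer cells of a type and less RNA per cell cannot be told apart.

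The rest of the pathway was read from lists of 115 genes for the steps before and after the members, of which 105 had a probe set of their own and 72 were at or above the filter by their brightest one. Counts per list are of genes at or above the filter and are to be read beside the shares of all genes given next. At 72 h against DMSO, 2 of the 72 rose, 11 fell and 59 did not pass the test; 18.1% were called, beside 24.0% of all 12678 genes, with 7.62% of all genes higher and 16.4% lower. The median log2 difference of the lists was -0.10 and that of all genes -0.06. At 6 h none of the 72 passed by limma and 3 had an unadjusted p below 0.05, beside 0.308% of all genes called. Between the times 3 rose and 12 fell, 20.8% beside 21.1% of all genes, of which 6.41% were higher and 14.7% lower. Without 72 h replicate 1 the 72 h count was 21, and without DMSO replicate 3 it was 7.

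Upstream of the cyclases, PTGER4, the Gs-coupled receptor EP4 for prostaglandin E2, rose. Its signals were 1698, 1628 and 1730.0 at 72 h, 1221, 1263 and 1294 at 6 h, and 1119, 1291 and 1164 in DMSO. All 72 h arrays lay above the other 6, with a log2 difference from DMSO of 0.50 (SE 0.05, adjusted p = 2.16e-05), 1.42-fold. Its other probe set gave -0.16 and did not pass, and with the mean of its probe sets the call was lost at 0.17. It was the 1 call among 14 Gs-coupled receptors above the filter, of 18 with a probe set. Among 10 G protein alpha subunits and regulators of cyclase input, 2 fell at 72 h: GNAQ, the alpha subunit that activates phospholipase C, by 0.37 log2 units (SE 0.06, adjusted p = 0.00114), and CAP2, a cyclase-associated actin regulator, by 0.25 log2 units (SE 0.06, adjusted p = 0.00682). With arrays centred on their medians the CAP2 call was lost, at -0.21. GNAQ is a Gq and not a Gs protein. Its other probe sets gave -0.50 and -0.59, both called, and -0.15 and -0.20, neither called. GNAS, which encodes the stimulatory alpha subunit itself, had a log2 difference of 0.10 (adjusted p = 0.079) and did not pass.

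Of the other cyclases only ADCY4 was above the filter, and it did not pass, with a log2 difference of -0.07 at 72 h (SE 0.18). Of 6 other phosphodiesterases that hydrolyse cAMP, 1 rose at 72 h. This was PDE10A, which hydrolyses both cAMP and cGMP, with 616, 615 and 584 at 72 h, 495, 504 and 510.3 at 6 h, and 517, 545 and 463 in DMSO. Its 72 h arrays lay above the other 6 and the log2 difference from DMSO was 0.25 (SE 0.06, adjusted p = 0.0125). The call was lost without DMSO replicate 3, at 0.19, and with the mean of the gene's probe sets, at 0.08, and 2 dimmer probe sets of PDE10A gave 0.15 and -0.17, neither called.

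Among 7 protein kinase A subunits and inhibitors, 2 fell at 72 h. PRKACB, a catalytic subunit, fell by 0.15 log2 units (SE 0.04, adjusted p = 0.0244), and PKIG, an inhibitor of the catalytic subunits, fell by 0.18 (SE 0.05, adjusted p = 0.0214). Other probe sets of PRKACB gave -0.44, which was called, and 0.27, which was not. The PRKACB call was lost under 9 of 20 alternatives, among them leaving out 72 h replicate 2 or 3 or any DMSO array, and the PKIG call under 7 of 20, among them leaving out DMSO replicate 2 or 3. The other catalytic subunit, PRKACA, had a log2 difference of -0.02 (adjusted p = 0.902), and its other probe set gave -0.37, not called. Of 11 anchoring proteins that hold the kinase in place, 1 fell, PDE4DIP or myomegalin, a scaffold that binds PDE4D. It gave 25.9, 29.7 and 33.5 at 72 h, 38.4, 62.1 and 42.9 at 6 h, and 46.8, 41.4 and 46.9 in DMSO. Its 72 h arrays lay below the other 6 (log2 difference -0.61, SE 0.18, adjusted p = 0.027), and 8 of 19 alternatives lost the call, among them leaving out 72 h replicate 1 or DMSO replicate 1 or 3. Among 7 other effectors and exporters, ABCC5, a cyclic nucleotide exporter, fell by 0.54 log2 units (SE 0.11, adjusted p = 0.00296). Its other probe sets gave -0.86, which was called, and 0.05, which was not.

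The CREB family and its cofactors held 4 called genes of 11 (36.4%), all lower at 72 h. Of all 12678 genes, 24.0% were called, and 16.4% of all 12678 were called lower. The list median was -0.23, beside -0.06 for all genes. Without single arrays the list held 2 to 5 calls. The lists were chosen with earlier results of these data known, so nothing is read from this share or median. SIK1, a kinase that phosphorylates and restrains the CRTC coactivators of CREB and is itself a CREB target, gave 186, 181 and 189 at 72 h, 248, 278 and 272 at 6 h, and 325, 312 and 326 in DMSO. The 3 groups did not overlap, and its log2 difference from DMSO was -0.79 at 72 h (SE 0.07, adjusted p = 5.17e-06) and -0.27 at 6 h (adjusted p = 0.387). Its other probe set gave -0.24 at 72 h and was not called. CREB3L2, a membrane-bound bZIP factor, gave 116, 113 and 84.3 at 72 h, 168, 181 and 176 at 6 h, and 182, 191 and 177 in DMSO. Its 72 h arrays lay below the rest (log2 difference -0.82, SE 0.12, adjusted p = 0.000223). Another probe set of CREB3L2 above the filter gave -0.37 and was not called. CRTC2, a CREB coactivator, fell by 0.53 log2 units (SE 0.15, adjusted p = 0.0259), and SIK2, a relative of SIK1, by 0.40 (SE 0.11, adjusted p = 0.0175). The CRTC2 call was lost under 7 of 19 alternatives: quantile normalization, cyclic loess, no filter, no trend, and without 72 h replicate 2, DMSO replicate 1 or DMSO replicate 3. The SIK2 call was lost under 4 of 20, each of them leaving out 1 array: 72 h replicate 2 or 3, or DMSO replicate 1 or 3. Other SIK2 probe sets above the filter gave -0.30 and -0.14, neither called. CREB1 itself had a log2 difference of 0.03 (adjusted p = 0.878), and its other probe sets ran from -0.22 to 0.39, none called.

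Of 18 genes with a probe set that are known as targets of cAMP and CREB, 8 were above the filter. Of these none rose and 2 fell at 72 h, SIK1 and ID1, which is 25.0% called beside 24.0% of all genes. ID1, a helix-loop-helix inhibitor, gave 5561, 5332 and 5035 at 72 h, 5960.0, 5786 and 5399 at 6 h, and 6715, 6781 and 6531 in DMSO. Its exposed arrays lay below DMSO at both times, with log2 differences of -0.33 at 72 h (SE 0.04, adjusted p = 0.000115) and -0.23 at 6 h (adjusted p = 0.0613). DUSP1 and NR4A1, immediate early genes that cAMP can induce, had log2 differences at 72 h of 0.04 (adjusted p = 0.56) and 0.10 (adjusted p = 0.762). Their other probe sets were lower, at -0.49 and -0.15 for DUSP1 and -0.24 and -0.29 for NR4A1, none called.

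**Figure D4:**
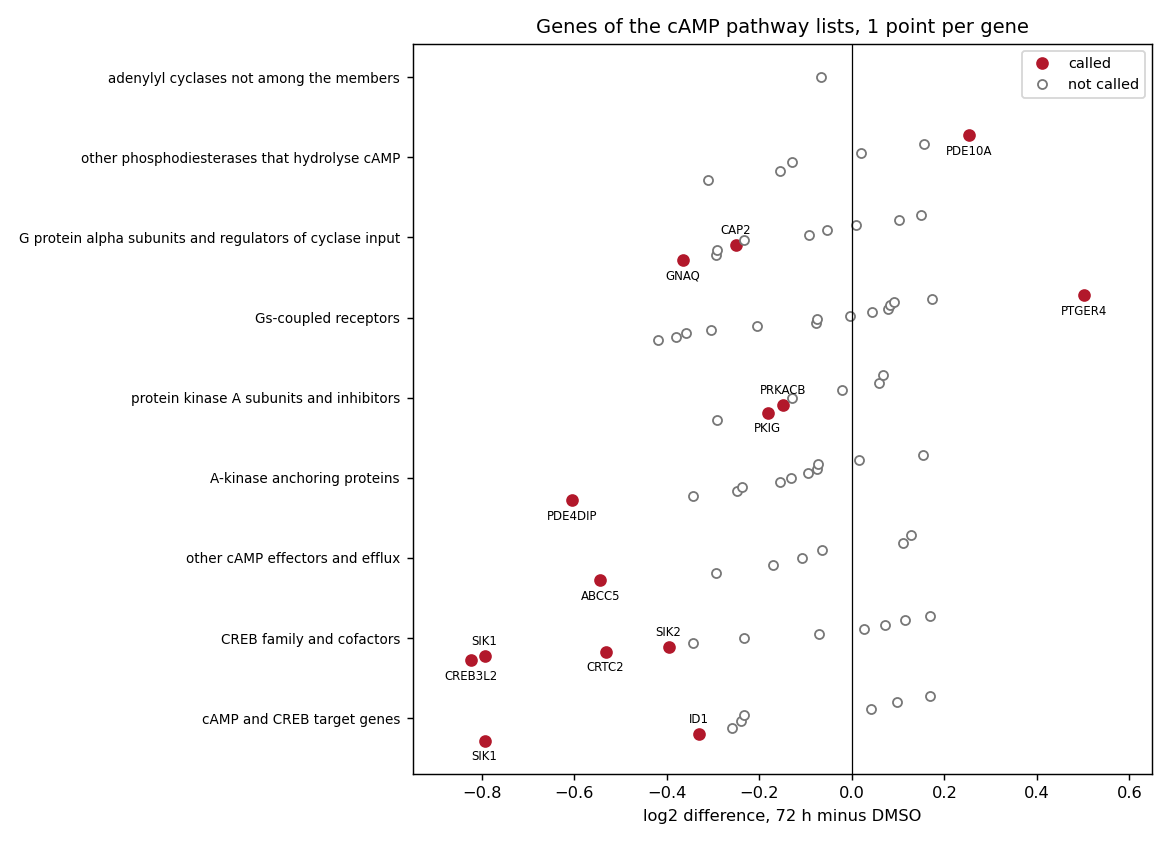
Log2 difference at 72 h minus DMSO (horizontal axis) of each gene at or above the filter in 9 lists of the cAMP pathway, 1 point per gene within a list, drawn by its brightest probe set; filled points passed the limma test and are named. The 2 genes that rose are PTGER4 at 0.50 and PDE10A at 0.25, and the lowest are CREB3L2 at -0.82 and SIK1 at -0.79.

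The genes whose pattern over the 9 arrays was nearest to ADCY9 204497_at were found by the root mean square of the difference in log2 signal, each taken relative to its own DMSO mean. The 5 nearest were ASNS (0.07), MKNK2 (0.07), PTCH1 (0.10), SLC7A11 (0.10) and FRAT1 (0.11). ASNS, asparagine synthetase, gave 3653, 3596 and 3571 at 72 h, 1828, 1752 and 1828 at 6 h, and 1429, 1497 and 1540.0 in DMSO. MKNK2, a kinase that phosphorylates the translation factor eIF4E, gave 2940.0, 2810.0 and 2905 at 72 h, 1515, 1532 and 1580.0 at 6 h, and 1163, 1287 and 1209 in DMSO. In both, as in ADCY9, the 3 groups did not overlap. At 72 h the log2 difference from DMSO was 1.28 for ASNS, 1.24 for MKNK2, 1.23 for PTCH1, 1.32 for SLC7A11 and 1.35 for FRAT1, beside 1.32 for ADCY9. At 6 h it was 0.28 for ASNS, 0.34 for MKNK2, 0.43 for PTCH1, 0.38 for SLC7A11 and 0.46 for FRAT1, beside 0.35 for ADCY9. Other probe sets gave 0.99 at 72 h for MKNK2, and 0.25 and 1.14 for SLC7A11. Likeness was measured on the values that define it, so it carries no test.

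**Figure D5:**
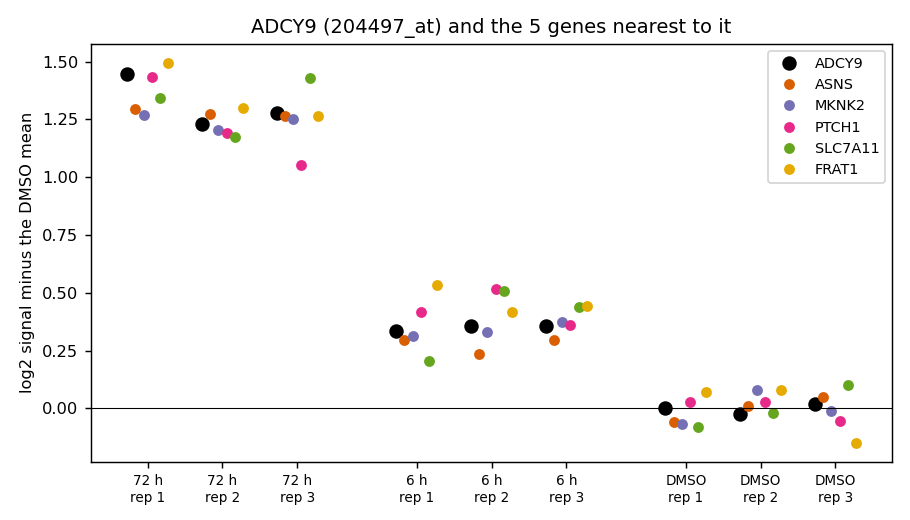
Log2 signal minus the gene's own DMSO mean (vertical axis) on each of the 9 arrays for ADCY9 204497_at and the 5 nearest genes, with arrays grouped as 72 h, 6 h and DMSO. At 72 h the group differences from DMSO lie between 1.23 and 1.35, and at 6 h between 0.28 and 0.46.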

How the data were processed

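Biotin-labelled RNA of each sample was read on 1 Affymetrix array. The deposited table holds linear intensity per probe set, between 4.54 and 25052. MAS5 was used per the submitters' processing notes; its version, its scaling and any later step were not given in the sources used here. In 59.2% of probe sets at least 2 arrays carry an identical value. Which step made these ties is not known, so how the values were made is uncertain. A spread within a group, and the standard errors and p-values built on it, can be too small. Values were used as deposited and log2 transformed, without further normalization or pseudocount.

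The platform annotation gave 41097 probe sets 1 symbol, 1801 several and 11777 none, and 41043 of the first were updated by identifier. Linear models (lmFit and eBayes with trend, limma 3.58.1, R 4.3.3) were fitted to the 27307 probe sets, without 62 control probe sets, whose mean lay at or above the median (log2 4.15). All 9 arrays entered, leaving 6 residual degrees of freedom, and Benjamini-Hochberg adjustment ran over all probe sets fitted. Members below the filter took their values from a fit without it. Both comparisons with DMSO use the same 3 solvent arrays. Precision is limited by the number of arrays. The fit was tested on simulated data.

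Members and lists were chosen with earlier results of these data known. All member probe sets were described, and from each pathway list up to 4 called genes with the largest change per comparison, a gene being read by its brightest probe set. GNAS, PRKACA, CREB1, DUSP1 and NR4A1 were named outside that rule after their values were seen. Listed genes without a probe set of their own were not analysed here. Promoter windows came from RefSeq (GRCh38.p14). Alternatives changed the scaling, filter, pseudocount, probe set summary, variance model, replicate block and single arrays.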

Additional observations from a re-analysis of the deposited data

Results flagged for a closer look

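For 15 pathway genes the effect at 72 h differed from that at 6 h by the limma test of 72 h against 6 h, in which the shared DMSO arrays cancel. They are 20.8% of the 72 genes above the filter, beside 21.1% of all genes. On the log2 scale, 72 h minus 6 h was 0.42 for PTGER4, 0.27 for PDE10A and 0.25 for ABCC4, a cyclic nucleotide exporter. It was -0.76 for CREB3L2, -0.66 for PDE4DIP, -0.62 for RGS2, -0.60 for ABCC5, -0.59 for GNAZ and -0.52 for SIK1. Smaller differences were -0.39 for RIC8B, -0.27 for GNAQ, -0.25 for PKIG, -0.24 for CAP2, -0.15 for PRKACB and -0.14 for EZR. RGS2, a regulator of G protein signalling, gave 76.3, 68.0 and 53.5 at 72 h, 96.5, 103 and 101 at 6 h, and 81.2, 68.4 and 81.2 in DMSO. Its 6 h arrays lay above both other groups, while 72 h and DMSO overlapped. GNAZ, an inhibitory-type alpha subunit, had the same order at 32.5, 22.2 and 26.4 at 72 h, 42.4, 37.1 and 41.5 at 6 h, and 35.7, 32.5 and 30.1 in DMSO. The calls of RGS2, ABCC5, CREB3L2 and SIK1 held under every alternative run, while that of RIC8B was lost under 15 of 20, EZR under 10 of 20, and PRKACB and ABCC4 under 8 of 20 each. With the mean of a gene's probe sets PTGER4 lost its call at 0.15 and PDE10A at 0.13, and PDE10A also lost it with median centring and with array weights. Median centring ended the GNAQ, PKIG and CAP2 calls, cyclic loess the PDE4DIP call, and a fit without trend or without 6 h replicate 3 the CAP2 call. Leaving out 1 array ended the GNAZ call for 6 h replicates 1 and 3, and the PDE4DIP call for 6 h replicate 2.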

How the results depend on the processing

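The 72 h difference of ADCY9 204497_at was 1.25 to 1.36 log2 units when single arrays were left out, and no alternative moved it beyond the spread. Its 6 h difference of 0.35 was moved beyond the spread by log2(signal + 16), to 0.33. Probe sets called at 72 h against DMSO numbered 5410, but 3272 with arrays centred on their medians, 3378 with 1 probe set per gene and 3275 to 7686 without single arrays (3486 without DMSO replicate 1, 3275 without DMSO replicate 3). At 6 h they numbered 53, but 83 with quantile normalization or cyclic loess, 25 with median centring (all higher), 12 without trend, 191 with array weights and 32 to 66 without single arrays (35 without 6 h replicate 2 or DMSO replicate 1, 32 without DMSO replicate 3). For 72 h against 6 h they numbered 4766, but 2754 with median centring, 3037 with 1 probe set per gene and 3088 to 7370 without single arrays (3088 without 6 h replicate 2, 7370 without 72 h replicate 1); 74.3% were lower, against 55.6% with quantile normalization and 55.0% with cyclic loess. Pathway genes called at 72 h against DMSO numbered 13, and 7 to 21 without single arrays. At 6 h they numbered 0, but 1 with the replicate block, the 75th percentile filter, 1 probe set per gene or the mean of a gene's probe sets, 2 with array weights and 0 to 1 without single arrays. For 72 h against 6 h they numbered 15, but 7 with median centring and 11 to 22 without single arrays. ABCC4 reversed at 72 h minus 6 h to -0.085 with the mean of its probe sets, and the cause was not tested. Deviations from the group means correlated at -0.26 to 0.20 between same-numbered arrays of different groups, and at -0.295 to 0.337 between differently numbered ones. With 3 arrays per group these values cannot decide whether the numbers pair samples. With the replicate block 4774, 46 and 4199 probe sets were called at 72 h, at 6 h and between the times. Leaving aside ADCY9 204497_at against DMSO, 339 values of member probe sets stayed within the spread under the alternatives and 11 moved beyond it. Of the values of named pathway genes, 445 kept the call and 89 lost it. Dim probe sets, ties between arrays and 3 arrays per group limit what can be read.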

Other observations

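Other probe sets of pathway genes, looked at after their values were seen, gave calls that the brightest one did not. Of the 59 genes not called at 72 h against DMSO by their brightest probe set, 8 had another one called, which was lower in 7 and higher in 1. Of all probe sets at or above the filter, 14.2% were called lower and 5.57% higher. The same count over all genes was not made, so nothing is read from it. PDE8A, a cAMP-specific phosphodiesterase with high affinity, did not pass at 72 h against DMSO by its brightest probe set (log2 difference -0.15, adjusted p = 0.146), while its other probe sets fell by 0.54 and 0.47 log2 units. CREM, a CREB relative with activator and repressor forms, stood at 0.17 by its brightest probe set (adjusted p = 0.416). Its other 3 gave -0.45, -0.32 and -0.29, of which the first passed. For 72 h against 6 h those 3 fell by 0.49, 0.46 and 0.38 log2 units, and the brightest stood at 0.03 (adjusted p = 0.914). CREBBP, a coactivator of CREB, stood at 0.11 by its brightest probe set (adjusted p = 0.316), and another fell by 0.64 log2 units. PRKAR1A, a regulatory subunit of protein kinase A, stood at 0.07 (adjusted p = 0.646), and another fell by 0.60 log2 units. SIK3 stood at -0.23 (adjusted p = 0.0909), and others fell by 0.57 and 0.42 log2 units. The called probe set of EZR fell by 0.23 and that of GNAI3 by 0.20, while that of GNA11 rose by 0.25 log2 units.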
